A study of Mus musculus with 15 samples.

Results

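Kruppel-like factors (KLFs) are transcription factors with a C-terminal zinc finger domain that binds GC-rich and CACCC-containing DNA. The mouse annotation used for these libraries holds 17 *Klf* genes, of which 9 were followed here because they were listed by name: *Klf2*, *Klf3*, *Klf4*, *Klf5*, *Klf6*, *Klf9*, *Klf10*, *Klf13* and *Klf16*. They were 9 of 48709 genes counted, and all 9 were measured in each of the 15 RNA-seq libraries, with between 642 and 9132 reads per gene and library.

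The libraries came from mouse embryonic stem cells (ESCs) grown in serum-free N2B27 medium with 2i/LIF, which combines inhibitors of MEK and GSK3 with leukaemia inhibitory factor, and losing OCT4 (encoded by *Pou5f1*) by either of 2 routes. CreER ESCs (Oct4Fl/-; CAG CreER, of mixed 129SV and C57BL/6 background) hold a floxed *Pou5f1* allele opposite a β-geo null allele and express a tamoxifen-dependent Cre recombinase from the CAG promoter. They were given 500 nM 4OHT and sampled at 0, 12, 18, 24 and 36 h, with 2 libraries per time. In the paper's qRT-PCR and western blot course of floxed ESCs, 4OHT came with a change to serum medium with LIF. Whether the medium was also changed for these libraries is not stated in the paper. O4AID ESCs (129SV, made from the ZHBTc4 line) lack both endogenous *Pou5f1* alleles and carry a TetOFF *Oct4* transgene held silent by doxycycline, a CAG-driven *Oct4* fused to the auxin-inducible degron (AID) and a CAG-driven Tir1, the plant F-box protein that recognises the degron. They were given 500 µM IAA, an auxin, and sampled at 0, 1.5, 6, 10 and 24 h, with 1 library per time. All O4AID libraries therefore come from cells whose OCT4 was supplied by a transgene, and IAA acts on that protein. RNA from cells given IAA without degron-tagged OCT4 was not analysed here. The paper's control for IAA was a qRT-PCR course of eGFP-AID ESCs, which is not among these libraries.

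KLF2, KLF4 and KLF5 form part of the naive pluripotency network of mouse ESCs, where they overlap in function. *Klf4* is a target of LIF-STAT3 signalling and KLF4 is among the reprogramming factors, *Klf2* is favoured by MEK inhibition, and *Klf5* also serves the trophectoderm, the outer layer of the blastocyst. The other members are broadly expressed: KLF6 is an activator induced by growth and injury signals, KLF3 is a repressor that recruits CtBP, and KLF9, KLF10, KLF13 and KLF16 belong to the KLFs that bind the Sin3 corepressor.

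The treatment was checked on *Pou5f1* RNA, which should fall in CreER because the gene itself is deleted. This RNA is no such check in O4AID, for which the paper followed the loss of tagged OCT4 by western blot. Over 12, 18, 24 and 36 h of 4OHT *Pou5f1* fell by 0.51, 0.96, 1.26 and 1.43 on the log2 scale (adjusted p of 4.15e-19 at 36 h, edgeR). In O4AID, where IAA acts on the protein, the *Pou5f1* log2 change was 0.19, -0.07, -0.10 and -0.25 at 1.5, 6, 10 and 24 h, and its reads cannot be divided between the transgenes. Each CreER library held 21.7 to 30.8 M counted reads (M, mega), and each O4AID library 40.5 to 48.7 M. The 7 ESC markers were all detected in both lines before treatment. They summed to 2964 to 3059 CPM (counts per mega-count, scaled within each system by the trimmed mean of M-values, TMM) in CreER at 0 h and 2174 to 2219 CPM at 36 h. Their sum was 4952 CPM in O4AID at 0 h and 1616 CPM at 24 h, of which *Pou5f1*, itself 1 of the 7, held 601. By 36 h in CreER 5 of the 7 were called lower and 1 higher, against 17.2% and 19.4% of all genes. The largest falls in CPM were those of *Tdgf1* (696 to 261) and *Pou5f1* (327 to 121). *Nanog* was called higher (575 to 660 CPM, adjusted p = 0.000119, edgeR) and *Esrrb* was not called (268 to 281 CPM). The 10 trophectoderm markers summed to 341 to 355 CPM in CreER at 0 h and 698 to 736 CPM at 36 h, and to 112 and 171 CPM in O4AID at 0 and 24 h. In O4AID 3 of the 7 expressed enough to compare were at least 2-fold higher at 24 h, against 4.44% of all genes. They were *Krt8* (8.97 to 36.2 CPM), *Krt18* (5.64 to 33.1) and *Krt7* (0.448 to 7.72). *Tfap2c*, the largest part of the O4AID sum, went from 86.4 to 77.3 CPM. The 7 primitive endoderm markers summed to 14.8 to 17.0 CPM in CreER at 0 h and 37.5 to 38.1 CPM at 36 h, and to 10.1 and 43.4 CPM in O4AID at 0 and 24 h. The 6 fibroblast markers summed to 9.54 to 12.2 CPM in CreER and 38.5 to 55.1 CPM in O4AID over all times. In each O4AID library 1 to 3 of the 6 reached 1 CPM and 1 or 2 had no reads, so this sum rests on few genes. In CreER 3 to 5 reached 1 CPM in both libraries of a time. In bulk RNA, fewer cells of a type and less RNA per cell cannot be told apart, and the part of these marker shifts in the *Klf* values was not tested.

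Promoter sequences are shown for 3 members. *Klf2* and *Klf4* were the members that passed 2-fold in O4AID, and *Klf6* was the member that rose most in CreER. The stretches run from 250 bases before to 50 bases after the RefSeq start site (GRCm38.p6) and are written 5′ to 3′ on the strand of the gene. A RefSeq promoter was matched for 6 of the 9 members. *Klf2* is shown from the plus strand of chr8:72318812-72319111, *Klf4* from the minus strand of chr4:55532426-55532725 and *Klf6* from the plus strand of chr13:5861239-5861538. Capitals mark the GC box (GGGCGG) and the CACCC box (CACCC), each searched on both strands. Where matches overlap the capitals run together, as for GC boxes of *Klf4*.
Klf2: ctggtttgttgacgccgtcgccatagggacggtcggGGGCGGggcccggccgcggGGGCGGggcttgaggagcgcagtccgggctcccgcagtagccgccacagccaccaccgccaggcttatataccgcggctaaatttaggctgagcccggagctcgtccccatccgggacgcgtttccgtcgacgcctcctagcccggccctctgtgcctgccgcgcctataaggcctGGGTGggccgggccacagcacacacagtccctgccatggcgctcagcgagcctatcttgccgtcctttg
Klf4: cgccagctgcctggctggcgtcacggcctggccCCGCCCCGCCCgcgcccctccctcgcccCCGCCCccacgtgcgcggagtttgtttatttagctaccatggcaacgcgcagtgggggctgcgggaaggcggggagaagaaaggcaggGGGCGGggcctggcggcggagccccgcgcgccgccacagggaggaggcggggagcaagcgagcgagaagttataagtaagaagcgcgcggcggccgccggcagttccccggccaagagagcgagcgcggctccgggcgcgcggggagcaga
Klf6: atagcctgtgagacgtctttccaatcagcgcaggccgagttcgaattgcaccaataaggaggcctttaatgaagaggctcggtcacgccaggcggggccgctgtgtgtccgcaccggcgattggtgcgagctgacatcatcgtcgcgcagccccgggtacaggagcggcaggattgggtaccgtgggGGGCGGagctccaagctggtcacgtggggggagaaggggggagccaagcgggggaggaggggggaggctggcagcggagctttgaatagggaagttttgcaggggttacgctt
The *Klf2* promoter holds 2 GC boxes and 1 CACCC box in these letters, that of *Klf4* holds 4 GC boxes and 0 CACCC boxes, and that of *Klf6* holds 1 and 0. Among all 32851 promoters of the same length, 35.7% hold a GC box and 57.5% a CACCC box. The GC share was 69.3% for *Klf2*, 74.3% for *Klf4* and 63.0% for *Klf6*, against a median of 52.7% over all promoters. The octamer (ATGCAAAT), the letters bound by OCT factors, was found in 1.7% of all promoters and in 0 of the 6 matched here, which says only that these letters are not in these windows.

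The first question was how strongly each member was expressed in untreated cells of either line. Levels were compared between genes as TMM-scaled reads per kilobase of exon per mega-read, scaled over all 15 libraries. In CreER at 0 h, *Klf9* stood highest at 70.8 ± 1.44 (SD, n = 2), followed by *Klf6* at 33.2 ± 0.360, *Klf2* at 31.2 ± 0.543 and *Klf5* at 29.3 ± 3.62. *Klf10* (23.9 ± 0.645), *Klf4* (17.3 ± 0.357), *Klf16* (13.6 ± 0.854), *Klf13* (6.77 ± 0.250) and *Klf3* (6.53 ± 0.454) came after. The replicates of *Klf5* overlapped those of *Klf2*, and those of *Klf3* overlapped those of *Klf13*, so neither pair could be ordered. In O4AID at 0 h the order per kilobase was *Klf9* at 59.8, *Klf4* at 53.6, *Klf5* at 45.5, *Klf10* at 40.4, *Klf2* at 39.0, *Klf6* at 25.6, *Klf16* at 13.9, *Klf3* at 8.41 and *Klf13* at 8.27.

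*Klf4* set the untreated lines apart more than any other member. Its level per kilobase was 53.6 in O4AID against 17.1 and 17.6 in the CreER replicates, which is 3.06-fold, or 1.61 on the log2 scale. *Klf10* differed by 0.75 and *Klf5* by 0.63 in the same direction, and *Klf6* by -0.37 and *Klf9* by -0.24 in the other. *Klf16* differed by 0.03. Genes on a chromosome also differed as a block: the median log2 ratio of O4AID to CreER was 0.11 over all genes but -0.41 over 824 genes of chromosome 8, which holds *Klf2*, and -0.25 over 518 genes of chromosome 14, which holds *Klf5*. Relative to those medians *Klf2* stood 0.73 higher and *Klf5* 0.88 higher in O4AID. *Klf4* stood 1.48 above the median of its chromosome 4. With 1 O4AID library, these are descriptions, and line, genotype and library preparation cannot be told apart.

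**Figure D1:**
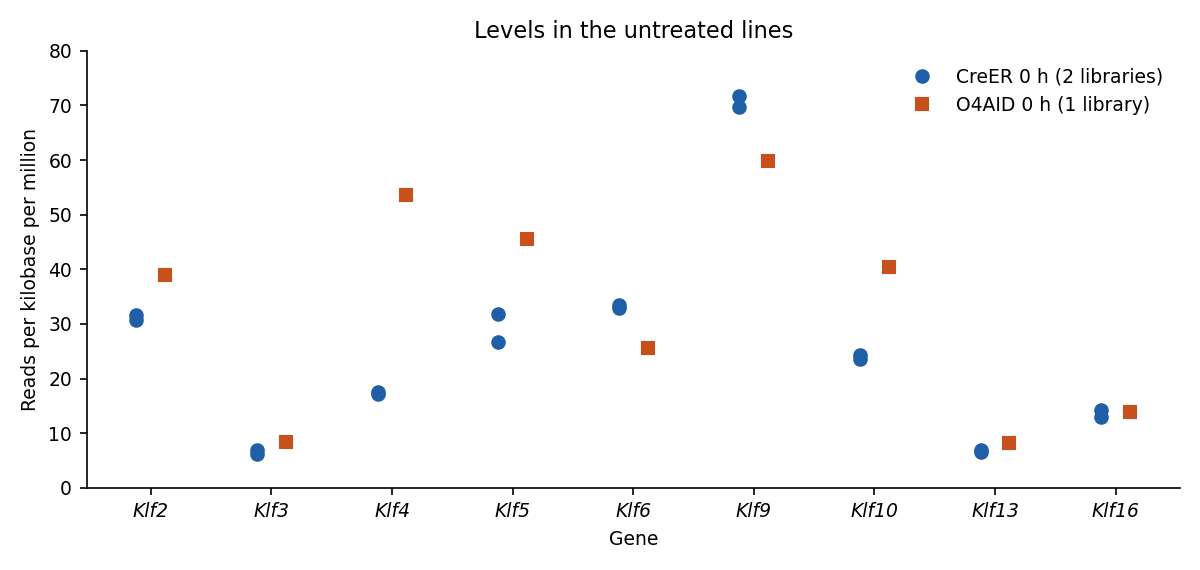
Level per kilobase (TMM-scaled reads per kilobase per mega-read, linear axis from 0) of the 9 members in untreated CreER (blue circles, 2 libraries) and O4AID (orange squares, 1 library). *Klf4* stands at 53.6 in O4AID and 17.1 to 17.6 in CreER, whereas *Klf16* stands at 13.9 and 13.0 to 14.2.

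The length used for each gene was that of the deposited count files, and for 3 members it falls well short of a newer annotation of the same genome. The files count 1721 bases of *Klf5* exons, 33.1% of the 5201 bases in GENCODE vM21, 67.8% of *Klf9* and 72.9% of *Klf10*. The level per kilobase of these 3 genes thus describes the counted exons and could move with a fuller gene model, whereas changes over time within a gene use the same exons in every library.

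The second question was how the members changed as OCT4 was lost. In O4AID, *Klf2* and *Klf4* were the members lower by more than 2-fold, at 6, 10 and 24 h of IAA. No member was past 2-fold in either direction at 1.5 h and none was past 2-fold higher at any time. Among the 13771 genes compared, 0.0799%, 0.639%, 1.19% and 3.49% were at least 2-fold lower in the 1.5, 6, 10 and 24 h libraries. The corresponding shares at least 2-fold higher were 0.0290%, 0.523%, 1.38% and 4.44%. In CreER, where replicates allowed a test (edgeR, quasi-likelihood), 0 of 9 members were called at 12 h, 3 rose at 18 h, 2 rose and 1 fell at 24 h, and 2 rose and 3 fell at 36 h. Among 18969 genes tested, the shares called higher were 0.258%, 4.73%, 11.0% and 19.4% in order of time, and the shares called lower were 0.137%, 3.79%, 10.6% and 17.2%. At 12 h, 3 members had an unadjusted p under 0.05 (*Klf6*, *Klf9* and *Klf10*, all higher, edgeR), as had 1649 of the 18969 genes. DESeq2 also called 0 members. With total-count scaling in place of TMM, the called genes that were higher made up 36.9% in place of 65.3% at 12 h. They made up 61.3% in place of 51.0% at 24 h and 36.0% in place of 53.1% at 36 h. At 36 h this scaling called 7498 of the 18969 genes, 2696 of them higher. Of the members it called 1 higher and 5 lower.

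Between the replicates of a CreER time, the log2 CPM of a member differed by at most 0.25, which was reached by *Klf5* at 0 h, and by at most 0.19 for the other 8 members. O4AID has no such measure of its own, so its changes are given with 95% counting intervals and all 4 times share the same 0 h library.

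*Klf4* (ENSMUSG00000003032, chromosome 4 from 55527143 to 55532466, minus strand, GRCm38) showed the largest change of the family. Its level in the O4AID libraries of 0, 1.5, 6, 10 and 24 h was 153, 115, 50.0, 45.1 and 28.3 CPM. Each later library stood below the one before it, and the last held 18.5% of the starting level. The log2 changes were -0.41 (95% interval -0.46 to -0.36), -1.60 (-1.67 to -1.53), -1.74 (-1.81 to -1.67) and -2.40 (-2.48 to -2.32) in the same order. Counted from the lowest of 13771 changes, *Klf4* held rank 15 at 6 h and rank 35 at 24 h. In CreER its replicate pairs of 0, 12, 18, 24 and 36 h read 55.0 and 53.3, 55.6 and 54.8, 58.1 and 54.0, 52.8 and 53.3, and 50.3 and 46.6 CPM. The 36 h libraries stood below both 0 h libraries, by 0.16 on the log2 scale (SE 0.056, adjusted p = 0.0275, edgeR). Without replicate 2 of 36 h the log2 change was -0.110 with an adjusted p of 0.222 (edgeR), and without replicate 1 of 0 h it was -0.136 with an adjusted p of 0.112. With no library of either time left out, the call was also lost in DESeq2 (adjusted p = 0.0652) and in a fit of the 4 libraries compared alone (adjusted p = 0.0757, edgeR). Per kilobase, O4AID *Klf4* started above CreER, lay within the range of untreated CreER at 6 h (17.3 against 17.1 to 17.6) and was below it at 10 h (15.5) and 24 h (9.75).

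*Klf2* (ENSMUSG00000055148, chromosome 8 from 72319033 to 72321656, plus strand) was the member with the largest drop at the first O4AID time. It stood at 67.5, 37.7, 29.7, 30.5 and 26.6 CPM in order of time. Most of the difference was thus present at 1.5 h, when 55.8% of the 0 h level was measured, and the 6, 10 and 24 h libraries lay close together. The log2 change was -0.82 at 1.5 h (-0.91 to -0.74), rank 23 from the lowest of 13771 genes, and -1.31 at 24 h (-1.40 to -1.22), rank 273. Against the 1.5 h library in place of 0 h, *Klf2* changed by -0.334, -0.294 and -0.485 at 6, 10 and 24 h and was no longer past 2-fold, whereas *Klf4* stayed past it at -1.190, -1.336 and -1.991. The CreER pairs of *Klf2*, in order of time, were 59.9 and 58.3, 62.7 and 59.8, 62.3 and 54.7, 52.6 and 55.3, and 47.6 and 47.3 CPM. The 24 h and 36 h libraries stood below both 0 h libraries. The fall passed the test at 36 h (log2 -0.32, SE 0.060, adjusted p = 0.000117, edgeR) and not at 24 h (-0.13, adjusted p = 0.106).

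*Klf5* (ENSMUSG00000005148, chromosome 14 from 99298691 to 99313405, plus strand) was lower in both systems at their last times, by less than 2-fold in each. Its CreER pairs were 56.3 and 47.1, 54.8 and 50.6, 49.9 and 43.6, 38.6 and 40.0, and 29.9 and 31.2 CPM in order of time. Both 24 h and both 36 h libraries stood below the 0 h replicates, which were themselves the furthest apart of any member and time. At 24 h *Klf5* fell by 0.39 on the log2 scale (SE 0.077, adjusted p = 0.000913, edgeR). At 36 h it fell by 0.76 (SE 0.081, adjusted p = 3.06e-07, edgeR), which was the largest fall of a member in CreER and left 0.592 of the 0 h level. Without replicate 1 of 0 h, the higher, the change at 36 h was -0.627, and without replicate 2 it was -0.885. Leaving out replicate 2 also brought the 18 h change to -0.271 with an adjusted p of 0.0323 (edgeR), against -0.14 and 0.283 with both. In O4AID *Klf5* stood at 73.4, 55.7, 50.2, 43.8 and 46.8 CPM in order of time, with log2 changes of -0.39, -0.54, -0.73 and -0.64. At 24 h the interval was -0.71 to -0.56, so *Klf5* stayed within 2-fold.

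**Figure D2:**
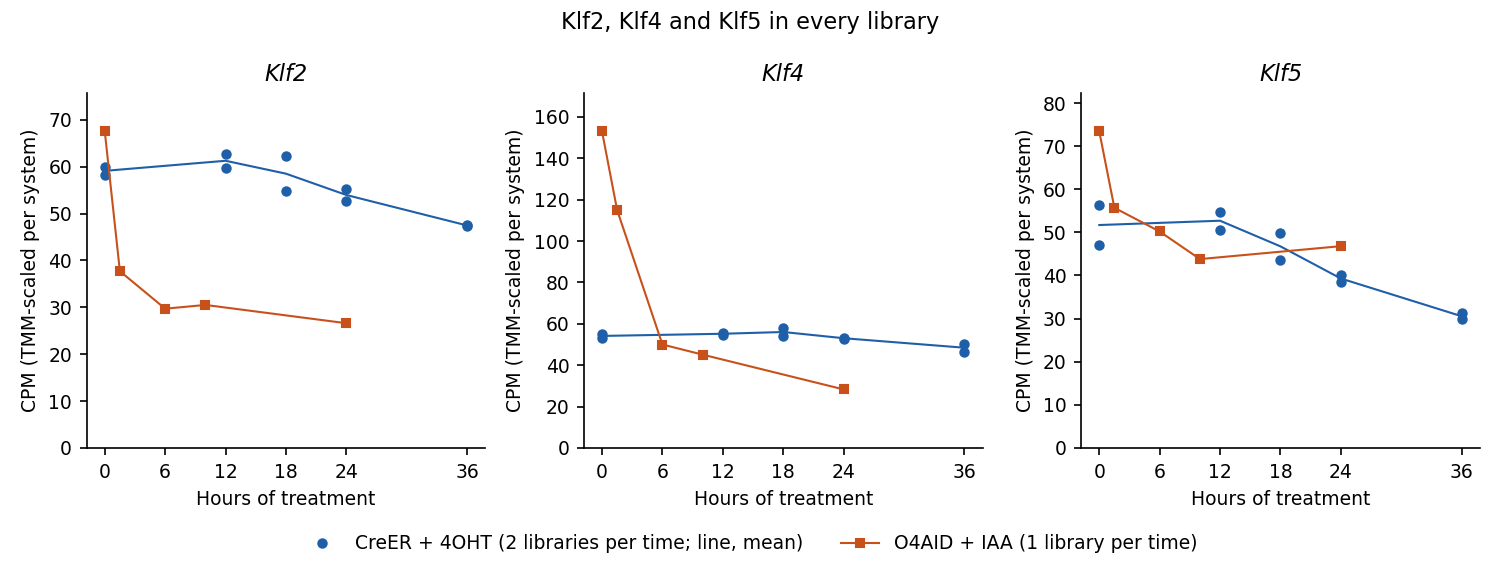
CPM (TMM-scaled within each system, linear axes from 0) of *Klf2*, *Klf4* and *Klf5* against hours of treatment, with CreER libraries as blue circles (2 per time, line through the mean) and O4AID libraries as orange squares (1 per time). *Klf4* drops from 153 to 28.3 CPM in O4AID while CreER stays between 46.6 and 58.1, *Klf2* reaches 37.7 CPM at 1.5 h, and *Klf5* ends near 30 CPM in CreER at 36 h.

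Between 24 and 36 h of 4OHT, *Klf2* fell by 0.18 (adjusted p = 0.0377, edgeR) and *Klf5* by 0.36 (adjusted p = 0.0051), and *Klf6* rose by 0.25 (adjusted p = 6.55e-05). Over this step 8.13% of the 18969 genes were called higher and 6.55% lower. With total-count scaling the higher genes made up 17.5% of the calls in place of 55.4%, and the median log2 change of all genes was -0.103. Of the 18969 genes 3887 were then called, 682 of them higher. Of the members 1 was then called higher and 4 lower. Of the 3 calls, that of *Klf2* was lost without any single library of the 4, with adjusted p-values of 0.0767 to 0.253 (edgeR), and in DESeq2 with all libraries (adjusted p = 0.0928). That of *Klf5* was lost without replicate 2 of 24 h (-0.339, adjusted p = 0.0542, edgeR) or replicate 1 of 36 h (-0.329, adjusted p = 0.0959).

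*Klf6* (ENSMUSG00000000078, chromosome 13 from 5861489 to 5870393, plus strand) was higher along both time courses, with a test in CreER alone. Its CreER pairs, in order of time, read 145 and 142, 154 and 160, 170 and 170, 179 and 186, and 213 and 222 CPM. The replicates of each time stood above those of the time before. The rise at 18 h was 0.24 on the log2 scale (SE 0.042, adjusted p = 0.000269, edgeR). It reached 0.35 by 24 h (SE 0.041, adjusted p = 4.87e-07, edgeR) and 0.60, or 1.52-fold, by 36 h (SE 0.041, adjusted p = 4.51e-12). In O4AID the level was 101, 107, 132, 133 and 157 CPM in order of time, with log2 changes of 0.08, 0.38, 0.39 and 0.63, the last with an interval of 0.58 to 0.68. At 24 h 89.7% of the genes compared had a lower log2 change than *Klf6*, which was within 2-fold.

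*Klf3* (ENSMUSG00000029178, chromosome 5 from 64803388 to 64832901, plus strand), the CtBP-binding repressor, did not pass the test at any CreER time. Its CreER values ranged from 71.5 to 83.6 CPM, with a log2 change of 0.02 at 36 h (SE 0.056, adjusted p = 0.829, edgeR). In O4AID it stood at 88.6, 116, 67.9, 94.3 and 71.0 CPM in order of time. The log2 changes of 0.39, -0.38, 0.09 and -0.31 thus alternated in sign, and all but that of 10 h were larger than 0.14, the largest difference between CreER replicates of this gene. Its exons share 404 bases with *Gm20033*, a gene on the other strand that held 185 reads over all 15 libraries.

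Of the members that bind Sin3, *Klf9* (ENSMUSG00000033863, chromosome 19 from 23141226 to 23166911, plus strand), which is induced by glucocorticoid and thyroid hormones, was the most highly expressed. Its CreER pairs read 241 and 233, 247 and 256, 261 and 257, 251 and 261, and 266 and 264 CPM in order of time. Every treated library stood above both untreated ones. The rise was small. By 18 h it was 0.13 on the log2 scale (SE 0.040, adjusted p = 0.0425, edgeR), by 24 h 0.11 (SE 0.040, adjusted p = 0.0434) and by 36 h 0.16 (SE 0.040, adjusted p = 0.00199). At 36 h it was lost with total-count scaling (0.078, adjusted p = 0.178, edgeR). The same scaling also lost the 18 h rise (0.113, adjusted p = 0.121, edgeR). At 18 and 24 h it was lost in DESeq2 (adjusted p of 0.0924 and 0.113) and with RLE scaling (0.0581 and 0.0633, edgeR). The rise at both times was further lost without a filter on low counts (adjusted p of 0.0685 and 0.0781, edgeR). A fit of the 4 libraries compared alone lost it as well (adjusted p of 0.0766 and 0.0939, edgeR). Without replicate 2 of 0 h the log2 change of *Klf9* was 0.106 at 18 h and 0.088 at 24 h, and the call was lost at both times. The call was also lost at both times without either treated replicate. In O4AID *Klf9* stood at 183, 204, 183, 192 and 131 CPM in order of time. The first 4 libraries lay close together and the 24 h library lay below them all, at a log2 change of -0.48 (-0.52 to -0.43).

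*Klf10* (ENSMUSG00000037465, chromosome 15 from 38294413 to 38300707, minus strand), which is induced early by TGF-β, rose for a time in CreER. The pairs of replicates read 76.2 and 73.1, 84.0 and 81.4, 86.1 and 83.6, 78.7 and 80.8, and 76.8 and 79.6 CPM in order of time. The 18 h rise of 0.18 (SE 0.047, adjusted p = 0.0134, edgeR) was the only CreER time that passed the test, and it was lost without replicate 2 of 0 h (0.154, adjusted p = 0.127, edgeR) or either 18 h replicate (0.163 and 0.206, adjusted p of 0.16 and 0.0508). In O4AID *Klf10* stood at 115, 154, 135, 128 and 143 CPM, so every treated library lay above the untreated one and the 1.5 h library was the highest, at a log2 change of 0.41 (0.36 to 0.46).

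*Klf13* (ENSMUSG00000052040, chromosome 7 from 63886351 to 63938915, minus strand) and *Klf16* (ENSMUSG00000035397, chromosome 10 from 80567124 to 80577321, minus strand) did not pass the test at any CreER time. *Klf13* stayed between 47.2 and 55.5 CPM in CreER, with a log2 change of -0.11 at 36 h (SE 0.056, adjusted p = 0.118, edgeR). In O4AID it read 58.3, 68.0, 59.5, 82.4 and 82.7 CPM in order of time, so the 10 and 24 h libraries stood apart from the earlier ones, and the log2 change at 24 h was 0.50 (0.43 to 0.57). *Klf16* stayed between 33.2 and 39.2 CPM in CreER, and its log2 change of -0.14 at 24 h had an adjusted p of 0.0999 (edgeR) that became 0.0415 without replicate 2 of 0 h. In O4AID it read 34.7, 36.9, 30.0, 29.9 and 23.2 CPM, with the lowest level at 24 h, at a log2 change of -0.56 (-0.67 to -0.46). With total-count scaling both genes were called lower at 36 h in CreER, at -0.198 (adjusted p = 0.00903, edgeR) and -0.192 (adjusted p = 0.0243).

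**Figure D3:**
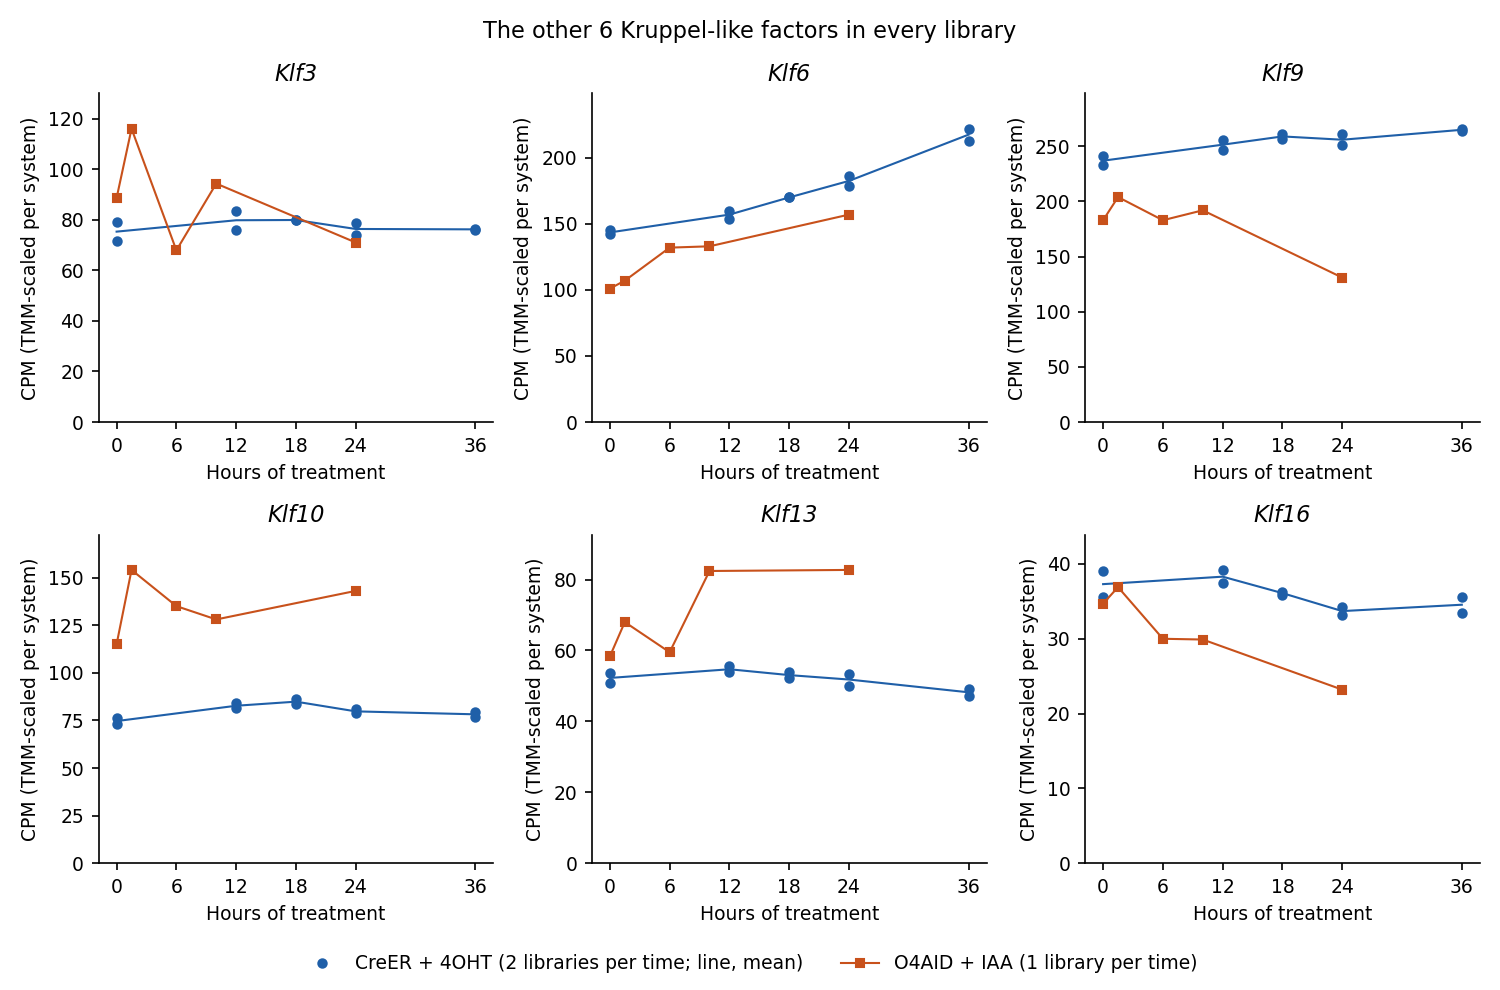
CPM (TMM-scaled within each system, linear axes from 0) of the other 6 members against hours of treatment, with CreER libraries as blue circles (2 per time, line through the mean) and O4AID libraries as orange squares (1 per time). *Klf6* climbs from 142 and 145 to 213 and 222 CPM in CreER and from 101 to 157 CPM in O4AID, whereas *Klf9* drops to 131 CPM in the O4AID library of 24 h.

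The third question was how the routes compared at the shared time of 24 h. *Klf4* had a log2 change of -2.40 in O4AID against -0.04 and -0.02 in the CreER replicates, and *Klf2* of -1.31 against -0.17 and -0.09. *Klf5* (-0.64 against -0.41 and -0.36), *Klf6* (0.63 against 0.32 and 0.37), *Klf10* (0.31 against 0.07 and 0.11) and *Klf16* (-0.56 against -0.16 and -0.12) had the same sign in both, with the O4AID value the larger in size. *Klf9* had opposite signs, at -0.48 against 0.08 and 0.14. For *Klf13* (0.50 against -0.06 and 0.03) and *Klf3* (-0.31 against -0.03 and 0.07) the CreER replicates lay on either side of 0. For all 9 members the O4AID value lay outside the CreER replicates. The share of all genes for which this holds was not computed, so the count is no result about the family. These differences between systems were not tested, since O4AID has 1 library per time, and the systems also differ in line, in the starting level of the gene and in how much OCT4 is left.

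**Figure D4:**
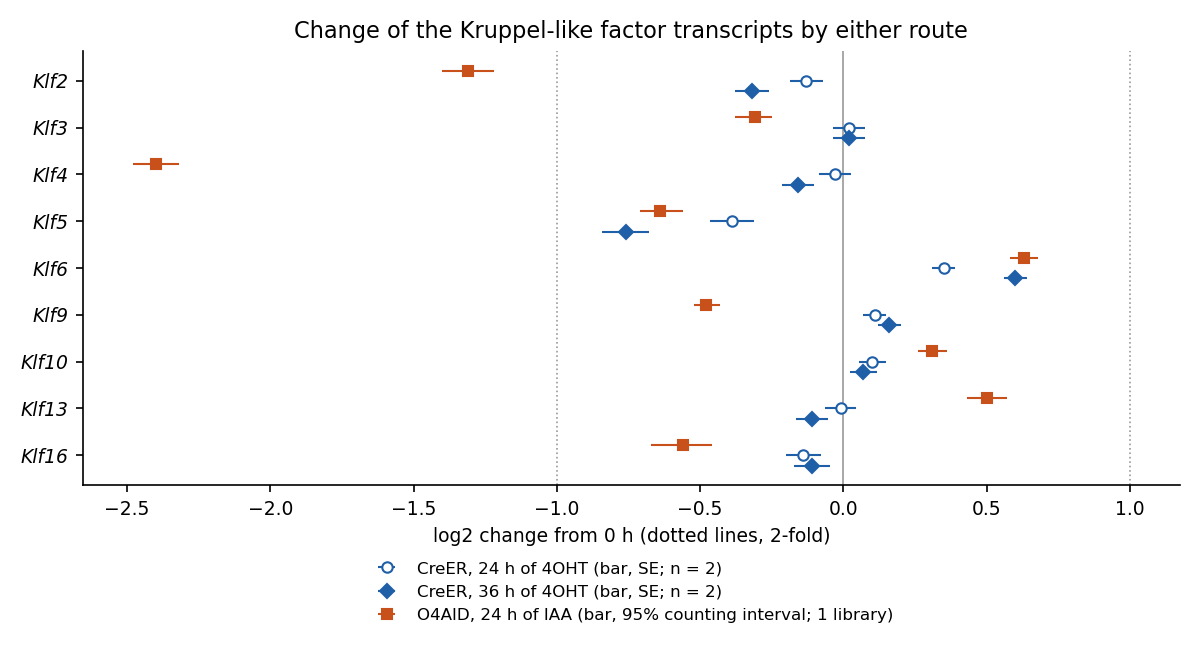
Log2 change from 0 h of each member in O4AID at 24 h (orange squares, bar for the 95% counting interval, 1 library) and in CreER at 24 h (open blue circles) and 36 h (filled blue diamonds, bars for the SE, n = 2), with dotted lines at 2-fold. *Klf4* at -2.40 and *Klf2* at -1.31 are the members past 2-fold, and *Klf6* lies near 0.6 in both systems at their last times.

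The make-up of the family shifted while its summed level moved less. In CreER the 9 members summed to 239 and 227 per kilobase at 0 h and 237 and 235 at 36 h, with a range of 227 to 250 over the 10 libraries. *Klf2*, *Klf4* and *Klf5* together held 33.9% and 32.9% of that sum at 0 h and 24.5% and 24.2% at 36 h. The other 6 members summed to 158 and 152 at 0 h and 179 and 178 at 36 h. In O4AID the sum went from 294 at 0 h to 278, 231, 231 and 212, and the share of *Klf2*, *Klf4* and *Klf5* from 46.9% to 34.5%, 28.2%, 25.8% and 25.3%. The other 6 summed to 156, 182, 166, 171 and 158 in order of time, so the 1.5 h library was the highest. The last libraries of the systems, at 36 and 24 h, thus held nearly the same share of these 3 genes, from starting shares that differed by line. The size of the share depends on the exon lengths. As shares of the reads of the 9 members, with no length correction, the 3 genes held 21.3% and 20.7% in CreER at 0 h and 15.1% and 14.8% at 36 h, and 33.6%, 23.3%, 17.6%, 15.3% and 14.3% in O4AID in order of time. The share was thus lower in each library, and the last libraries again lay below the first. By 24 h in O4AID the order per kilobase had become *Klf10* at 49.5, *Klf9* at 42.3, *Klf6* at 39.2, *Klf5* at 28.6 and *Klf2* at 15.2, with *Klf4* in the seventh place at 9.75. By reads, *Klf6* (22.1% of the 9 members) and not *Klf10* (20.2%) came first in that library. In CreER at 36 h *Klf9* (78.6 ± 1.03, SD, n = 2) and *Klf6* (49.9 ± 0.988) stayed first and second, and *Klf2* and *Klf10* overlapped at 24.8 each.

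**Figure D5:**
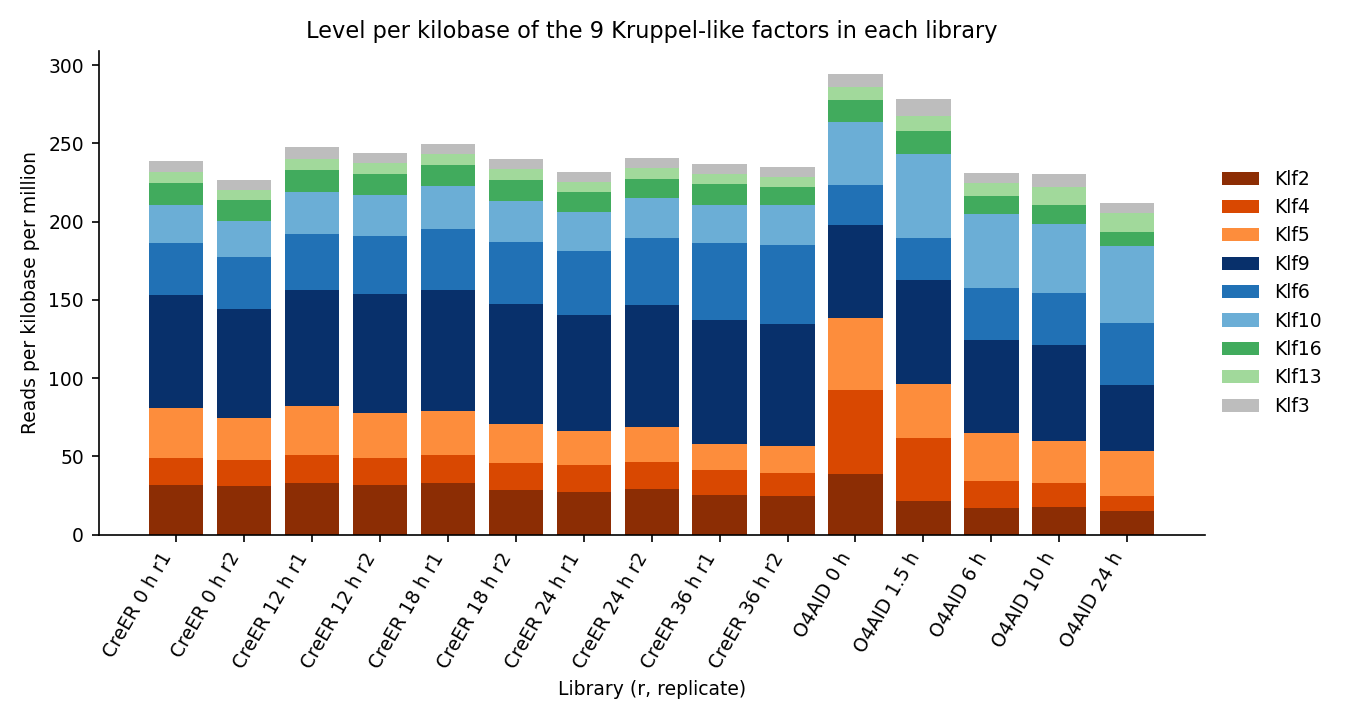
Level per kilobase (TMM-scaled reads per kilobase per mega-read, stacked bars from 0) of the 9 members in each of the 15 libraries, with *Klf2*, *Klf4* and *Klf5* in warm colours at the bottom. The bars total 227 to 250 in CreER and shrink from 294 to 212 in O4AID, where the warm part shrinks from 138 to 53.6.

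Other genes of the pathway were read from lists, and their counts at 36 h in CreER are to be read against the 19.4% of all genes called higher and 17.2% called lower. In O4AID at 24 h the shares of all genes past 2-fold were 4.44% and 3.49%. Of the 8 other *Klf* genes, 1 rose and 1 fell at 36 h in CreER (median log2 change 0.01, as over all genes tested). *Klf15*, a metabolic regulator of muscle and liver, rose by 0.48 (adjusted p = 0.00142, edgeR) from 6.44 to 9.02 CPM, and *Klf11* fell by 0.20 (adjusted p = 0.0431). In O4AID 5 of the 8 were expressed enough to compare, and *Klf15* (-1.41, from 40.2 to 14.5 CPM) and *Klf12* (-1.23, from 8.79 to 3.17 CPM) were past 2-fold lower at 24 h, with a median of -0.38 against -0.03 over all genes compared. *Klf15* thus had opposite signs in the 2 systems at their last times, a difference that was not tested.

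Sp factors are the sister family of the KLFs and bind similar GC-rich sites. Of 9 in CreER at 36 h, 3 rose and 1 fell (median -0.16 against 0.01 over all genes). *Sp6* rose by 1.34 from 0.279 to 0.711 CPM (adjusted p = 0.0148, edgeR), *Sp4* by 0.37 and *Sp3* by 0.13, and *Sp1* fell by 0.16. In O4AID, of 6 compared, *Sp5*, a target of Wnt signalling, was past 2-fold higher at 24 h at 1.38 (12.1 to 33.2 CPM), with a median of -0.03.

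Of 11 cofactors and ubiquitin ligases of KLF proteins, 3 rose and 5 fell at 36 h in CreER (median -0.11). *Ctbp2*, the corepressor that KLF3 recruits, fell by 0.55 (adjusted p = 1.03e-11, edgeR) and was past 2-fold lower in O4AID at 24 h, at -1.17 (148 to 65.0 CPM), the only one of the 11 that was. *Sin3b*, a Sin3 corepressor, rose by 0.50 in CreER (adjusted p = 8.29e-11, edgeR), *Hdac1* fell by 0.46 and *Kat2b* by 0.31. *Hdac1* stood at 22.7 CPM in untreated CreER and 145 CPM in untreated O4AID. The cause of that gap was not tested. Of 9 inputs to the ESC *Klf* genes, components of the LIF-STAT3 and MEK-ERK pathways, 3 rose and 3 fell at 36 h in CreER (median -0.05) and 0 of 9 were past 2-fold in O4AID at 24 h (median 0.00). *Lifr*, the LIF receptor, fell by 0.83 (164 to 92.7 CPM, adjusted p = 1.28e-14, edgeR), *Mapk3* by 0.41, and *Jak1* rose by 0.26 and *Map2k2* by 0.23. None of the 14 genes named from these lists in CreER changed direction under RLE or total-count scaling or in DESeq2. With total-count scaling the calls of *Sp3* (0.05, adjusted p = 0.442, edgeR) and *Map2k2* (0.14, adjusted p = 0.0792) were lost. The counts became 1 higher and 3 lower for the other *Klf* genes, 2 and 2 for the Sp factors, 2 and 6 for the cofactors and 1 and 5 for the inputs. These are to be read against 7498 of 18969 genes called with that scaling, 2696 of them higher. DESeq2 lost the call of *Klf11* (adjusted p = 0.134) and gave *Sp6* no adjusted p.

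The genes whose changes were most like those of the 3 naive factors were found as the smallest root-mean-square difference in log2 change over the 8 treated times, among 9762 genes. For *Klf2* they were *Sgk1* (0.17), *Myo10* (0.23) and *Prdm14* (0.25). For *Klf4* they were *Spry2* (0.24), *Inhbb* (0.24) and *Mcc* (0.25), with O4AID log2 changes at 24 h of -2.38, -2.71 and -2.11. For *Klf5* they were *Mkrn1* (0.10), *Snrpd3* (0.11) and *Cdyl* (0.12). Among the other 8 members, the nearest to *Klf4* was *Klf2* (0.50), the nearest to *Klf2* was *Klf5* (0.42) and the nearest to *Klf5* was *Klf16* (0.37), which is not set against the nearest of all genes because far fewer genes were searched. All 8 changes of a gene share 2 sets of 0 h libraries, so likeness is a description of these libraries.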

How the data were processed

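Directional libraries of rRNA-depleted RNA were sequenced from both ends by the authors, who trimmed the reads with Trim Galore 0.1.4, aligned them with TopHat2 2.1.0 to GRCm38/mm10 and ran featureCounts 1.5.1 for reads per gene. The deposited files hold those raw counts. Strand and multimapping settings are not given in the sources used here. The deposited normalised table was not used. Groups, times and replicate numbers came from the sample labels, none of which says that replicates were separate cultures, so p-values measure the spread between libraries. Of 48709 genes, 48349 had a symbol, and genes without held 0.0412% of reads. The 92 spike-in entries held 0 reads and were left out.

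All 10 CreER libraries entered a single quasi-likelihood fit in edgeR 4.0.16 (R 4.3.3; TMM, filterByExpr, robust, prior count 0.125), with Benjamini-Hochberg adjustment over 18969 genes and calls at an adjusted p under 0.05. The study used NOISeq-sim, which simulates replicates and was not used here. O4AID log2 changes were ratios of TMM CPM plus 1, with 95% Wilson intervals (SciPy 1.17.1) carried to the ratio and a 2-fold threshold among genes with a mean of at least 1 CPM. Reads carry no molecular identifiers, so intervals cover counting error only. DESeq2 1.42.0, other scalings, filters, pseudocounts and left-out libraries were alternatives. Counts were also simulated for 18969 genes with 1 spread common to all, and 62, 66 and 66 genes changed by 0.5, 1 and 1.5 (log2) at 36 h were scored. Of these 58.1%, 81.8% and 89.4% were recovered, and 6.29% of the calls were false. The data themselves gave 6948 calls at 36 h and have a spread that differs by gene, so these rates need not hold for them. Of genes on the lists, up to 4 with the largest change were named per system, and for likeness the 3 nearest genes with at least 5 CPM in each line. The members and lists were chosen with earlier results of these data known, and the other scalings of the lists and the shares of reads were added after seeing the data. Replicates differed by 3.02 to 7.00 in chi-square per degree of freedom, so none were taken as 1 library.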

Additional observations from a re-analysis of the deposited data

Results flagged for a closer look

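*Klf9* at 24 h was looked at again because its change had opposite signs in the 2 systems. The O4AID library of 24 h stood at a log2 change of -0.48, whereas both CreER replicates were higher than their 0 h mean, by 0.08 and 0.14 (mean 0.11). The difference was not tested, since O4AID has 1 library per time.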

How the results depend on the processing

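In CreER, single left-out libraries moved the number of all genes called to 8 to 218 at 12 h (75 with all libraries), 582 to 2006 at 18 h (1616), 2343 to 3703 at 24 h (4089) and 1491 to 2194 at 36 h against 24 h (2785), and the number of members called to 1 to 3 at 18 h (3) and 1 to 2 at 36 h against 24 h (3). Without a filter on low counts 222 genes were called at 12 h. DESeq2 called 989 genes at 18 h, 2585 at 24 h and 1671 at 36 h against 24 h. Total-count scaling called 3887 genes and 5 members at 36 h against 24 h. It also turned the direction of 7 changes that had not passed the test: *Klf4* (-0.011) and *Klf5* (-0.007) at 12 h, *Klf13* (0.008) at 24 h, *Klf3* (-0.067) and *Klf10* (-0.019) at 36 h, and *Klf9* (-0.057) and *Klf16* (-0.070) at 36 h against 24 h. Left-out libraries turned the direction of other such changes, which ranged at 12 h from -0.094 to 0.163 for *Klf5* and -0.026 to 0.107 for *Klf16*. At 18 h they ranged from -0.112 to 0.076 for *Klf2*, -0.004 to 0.101 for *Klf4*, -0.018 to 0.062 for *Klf13* and -0.111 to 0.021 for *Klf16*. At 24 h they ranged from -0.052 to 0.095 for *Klf3* and -0.062 to 0.030 for *Klf13*. For *Klf3* the range was -0.055 to 0.091 at 36 h and -0.051 to 0.046 at 36 h against 24 h, and for *Klf16* it was -0.010 to 0.083 there. In O4AID a pseudocount of 0.1 CPM put 54, 307 and 576 genes past 2-fold at 1.5, 6 and 10 h, and a pseudocount of 5 CPM put 7, 62, 147 and 490 past it at 1.5, 6, 10 and 24 h. With the 1.5 h library as the reference, 88 genes and 1 member were past it at 6 h, and 1 member at 10 h and at 24 h. The causes were not tested. Replicate numbers did not pair the libraries (correlations of -0.02 to 0.05 over 10 pairs of groups), and a fit with the replicate number as a block called 6999 genes and 5 members at 36 h and kept the call and direction of all 45 member values. Without length correction the untreated order changed: by CPM *Klf3* (73.4) stood above *Klf10*, *Klf2* and *Klf5* (50.4) in CreER.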
